A study of Mus musculus with 2 samples.

Results

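*Fcer2a*+ B cells of the infarcted neonatal mouse heart are described here: 251 cells, 118 from a WT library and 133 from a *Lyve1* KO library, of 779 B cell barcodes and 10998 deposited barcodes in both libraries. The data were scRNA-seq counts of live (7-AAD-negative) CD45+ cells sorted from hearts 7 days after myocardial infarction (MI) at P2, when the mice were 9 days old. Each library pooled 5 hearts of 1 genotype, WT or *Lyve1* KO (a global knockout that every cell of these mice carries), so no genotype had a replicate library. All differences below compare 2 libraries and have no replicate check, no p-value is given, and every interval covers counting error only. The WT library held 67968938 UMIs (unique molecular identifiers, 1 per captured RNA molecule) and the KO library 61555917. *Fcer2a*+ B cells had a median of 11226 UMIs and 3309 genes in WT and 11828 UMIs and 3406 genes in KO. Levels are UMIs summed over the cells of a library and scaled to counts per 1000000 UMIs of the group (CPM), a unit that is not divided by gene length. Where a pair of values follows a gene, the WT library comes first and the KO library second.

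B cells carry an antigen receptor made of immunoglobulin heavy and light chains, joined to the signaling proteins CD79A and CD79B. Newly made B cells leave the bone marrow or neonatal liver as transitional cells, marked by CD93 and CD24, and mature into follicular B cells, which recirculate through lymph nodes and spleen and carry IgD and CD23, the low-affinity IgE receptor that *Fcer2a* encodes. B-1 cells are a separate branch, frequent in the newborn, that divides in the periphery and carries little IgD or CD23.

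The cells were selected on measured values of each barcode. A barcode needed at least 1000 detected genes and at most 10% mitochondrial UMIs, at least 5 UMIs of *Cd79a* and *Cd79b* together, at least 1 UMI of *Fcer2a*, fewer than 2 UMIs of *Zbtb32* and *Fcrl5* together (genes that mark the B-1-type cells of these libraries), and fewer than 2 UMIs each of the T cell gene *Cd3e* and the macrophage gene *Csf1r*. In WT, 3380 of 5713 barcodes passed the limits on genes and mitochondrial UMIs, 396 of these had the *Cd79a* and *Cd79b* UMIs, 142 of these an *Fcer2a* UMI, and 121, 119 and 118 were left after the *Zbtb32* and *Fcrl5*, *Cd3e* and *Csf1r* limits. In KO, the same steps left 2769 of 5285 barcodes, then 491, 150, 134, 134 and 133. The limit with the most cells near it was that on *Fcer2a*: 24 WT and 13 KO cells had exactly 1 *Fcer2a* UMI, and 125 WT and 158 KO B cells that met every other limit had none. Those 125 and 158 *Fcer2a*-zero B cells, and the 97 WT and 148 KO B cells with 2 or more *Zbtb32* and *Fcrl5* UMIs (*Zbtb32*/*Fcrl5* B cells), are the groups used for comparison. The other limits had few cells near them. For *Zbtb32* and *Fcrl5*, 6 WT and 7 KO cells had 1 UMI and 2 WT and 4 KO cells were kept out with 2. For *Cd79a* and *Cd79b*, 3 WT and 5 KO cells had 5 to 7 UMIs and 8 WT and 2 KO cells were kept out with 2 to 4. For *Csf1r*, 3 WT and 4 KO cells had 1 UMI and 1 cell per library was kept out, and for *Cd3e* no cell had 1 UMI and 2 WT cells were kept out. Between 8 and 10% mitochondrial UMIs lay 4 WT and 2 KO cells, with none just above 10%, and 1 WT cell had under 1200 genes, with 3 KO cells kept out at 800 or more but under 1000. No barcode of these cells was among the 9 barcode sequences that both libraries held.

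Of the 4 genes that name these cells, *Fcer2a* and *Cd79a* were part of the rule, and their values describe the choice. *Fcer2a* was at 566 CPM in WT (795 UMIs, exact Poisson 95% interval 528–607) and 776 CPM in KO (1345 UMIs, 735–818), with 1 to 34 UMIs per WT cell (median 5) and 1 to 39 per KO cell (median 7). *Cd79a* was at 2816 and 2825 CPM. *Ighd*, the IgD heavy chain, had a UMI in 109 of 118 WT cells (92.4%, exact Clopper-Pearson 95% interval 86.0–96.4) and 125 of 133 KO cells (94.0%, 88.5–97.4), with a median of 4 and 5 UMIs per cell. Its summed level reached 402 CPM (369–436) in the WT library and 434 CPM (404–467) in the KO library, against 216 and 241 CPM in *Fcer2a*-zero B cells and 94.5 and 75.2 CPM in *Zbtb32*/*Fcrl5* B cells. *Vpreb3*, a chaperone of the B cell receptor light chain that is most active in immature B cells, went against the label in part. It had a UMI in 63 of 118 WT cells (53.4%) and 96 of 133 KO cells (72.2%). Its 167 and 240 CPM lay below the 419 and 471 CPM of *Fcer2a*-zero B cells, so *Vpreb3* did not mark *Fcer2a*+ B cells against that group. Against *Zbtb32*/*Fcrl5* B cells *Vpreb3* was at least 2-fold higher in both libraries. Of those cells, which had more UMIs per cell, 35 of 97 in WT (36.1%) and 53 of 148 in KO (35.8%) had a *Vpreb3* UMI. T cells of the same libraries, which lack these genes, had a *Vpreb3* UMI in 0 of 244 WT cells, which allows a share of up to 1.2% (3 cells of 244), and in 2 of 410 KO cells (0.49%), with medians of 13832 and 13807 UMIs per cell. They had an *Ighd* UMI in 5.7% and 6.6%.

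**Figure D1:**
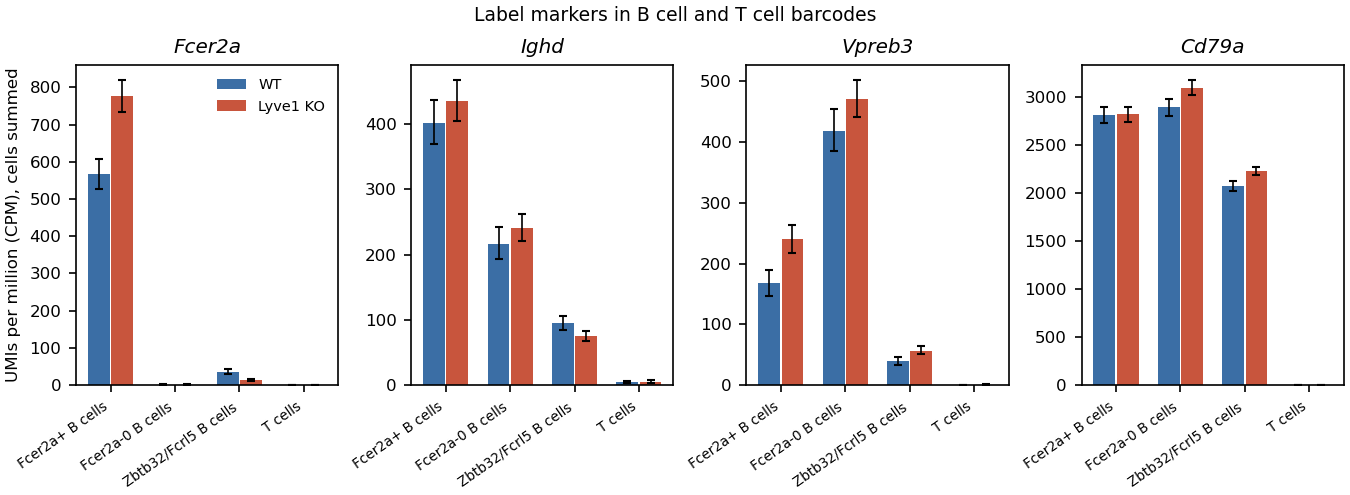
Levels of the 4 label genes (CPM, UMIs summed over the cells of a library; bars start at 0) in *Fcer2a*+ B cells, *Fcer2a*-zero B cells, *Zbtb32*/*Fcrl5* B cells and T cells, WT in blue and *Lyve1* KO in red, with exact Poisson 95% intervals. *Ighd* was highest in *Fcer2a*+ B cells, whereas *Vpreb3* was highest in *Fcer2a*-zero B cells in both libraries.

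The windows upstream of *Vpreb3* and *Fcer2a* are printed because both genes name these cells. They are the 250 bases before the start site in RefSeq (GRCm38.p6): chr10:75948050-75948299, plus strand, for *Vpreb3*, and chr8:3694175-3694424, minus strand, for the most upstream of 3 RefSeq starts of *Fcer2a*. Capitals mark the octamer ATGCAAAT, the motif of the OCT transcription factors in immunoglobulin promoters, searched on both strands.
Vpreb3: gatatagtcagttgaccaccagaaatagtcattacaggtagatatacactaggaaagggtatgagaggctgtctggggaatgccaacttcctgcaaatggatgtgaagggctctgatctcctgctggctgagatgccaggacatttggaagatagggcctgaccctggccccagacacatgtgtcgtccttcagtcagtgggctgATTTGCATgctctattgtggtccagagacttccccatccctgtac
Fcer2a: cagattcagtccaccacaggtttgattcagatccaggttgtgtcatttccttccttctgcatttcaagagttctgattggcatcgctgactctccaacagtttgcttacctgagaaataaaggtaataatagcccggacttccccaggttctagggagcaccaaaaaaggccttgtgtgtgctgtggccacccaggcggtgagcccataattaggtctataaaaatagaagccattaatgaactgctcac
*Vpreb3* held 1 octamer, on the minus strand and beginning 45 bases before the start, and none of the 3 *Fcer2a* windows nor the *Cd79a* window held one. Of 27025 mouse promoter windows of this length, 435 (1.61%) held an octamer. Of 12 genes of the pan-B list, 7 had a window and 0 of these held it.

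Beyond the genes of the rule, the cells carried the common B lineage program with genes of both mature and transitional cells. *Ebf1* (1687 and 1882 CPM), *Pax5* (454 and 474 CPM) and *Ms4a1*, which encodes CD20 (1180 and 1096 CPM), had a UMI in between 97.5% and 100% of cells of each library. Of 12 genes fixed as mature recirculating follicular markers, all were detected in both libraries, though detection of a rule gene such as *Fcer2a* was set by the choice. *H2-Aa* (3266 and 2769 CPM), *Klf2* (1403 and 1309 CPM), a regulator of lymphocyte recirculation, and *Ccr7* (1194 and 800 CPM), a lymph node homing receptor, were the most abundant of them. *Cr2*, which encodes the complement receptor CD21, was at 37.8 and 43.8 CPM, with a UMI in 22.9% and 31.6% of cells. Of 14 immature and transitional genes, *Cd24a* (385 and 429 CPM), *Vpreb3*, *Sox4*, *Tifa*, *Atp1b1* and *Cd93* were measured with at least 100 UMIs over both libraries. The pro-B and pre-B genes *Igll1* and *Dntt* had 0 UMIs in both libraries, where 3 UMIs would be 2.14 and 1.73 CPM. *Rag1* had 6 UMIs in WT and 2 in KO, and *Rag2* had 0 and 2.

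*Cd93*, the classical transitional marker, had a UMI in 24.6% of WT cells (29 of 118, interval 17.1–33.4) and 26.3% of KO cells (35 of 133, 19.1–34.6). With every cell thinned to 6500 UMIs, which left out 17 WT and 8 KO cells, the shares were 17.8% (10.9–26.7) and 13.6% (8.13–20.9). At this depth 6.4% of WT and 4.1% of KO T cells, which should lack *Cd93*, had a UMI, as did 29.4% and 19.6% of *Fcer2a*-zero B cells and 4.1% and 3.4% of *Zbtb32*/*Fcrl5* B cells. The KO minus WT difference in *Fcer2a*+ B cells was -4.2 points (Newcombe 95% interval -14.1 to 5.2), which the counts could not tell from 0 and whose sign turned in 5 of 7 alternatives. *Cd93* and *Vpreb3* were found in the same cell in 19 WT and 27 KO cells, and 45 WT and 29 KO cells had neither.

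Levels of *Ighd* and *H2-Aa* were higher, and of *Vpreb3* and *Cd24a* lower, in B cells with 10 or more *Fcer2a* UMIs than in those with none, a number that is also set by the depth of the cell and that chose the cells in part. *Ighd* was 216 CPM in WT B cells with no *Fcer2a* UMI, 378 CPM with 1, 321 CPM with 2 to 4, 483 CPM with 5 to 9 and 427 CPM with 10 or more. In KO it was 241, 352, 346, 438 and 487 CPM in the same order. *H2-Aa*, the alpha chain of MHC class II, ran from 1682 to 4088 CPM over these steps in WT and from 1954 to 2744 CPM in KO, where the highest step was the 5 to 9 bin, at 3031 CPM. *Vpreb3* ran the other way, from 419 CPM at 0 to 226, 129, 195 and 137 CPM in WT and from 471 CPM to 352, 330, 209 and 199 CPM in KO. *Cd24a* was at 564 CPM with no *Fcer2a* UMI and 308 CPM with 10 or more in WT, and at 635 and 348 CPM in KO. *Atp1b1*, a sodium pump subunit, was at 185 and 26.1 CPM at these ends in WT and at 157 and 28.4 CPM in KO. Cells with a single *Fcer2a* UMI had *Sox4*, a transcription factor of lymphoid progenitors, at 156 and 424 CPM, close to or above the 183 and 226 CPM of *Fcer2a*-zero B cells, and those with 10 or more had 63.9 and 51.5 CPM. The 424 CPM rest on 71 UMIs in 13 cells. In KO, 1 *Fcer2a*+ B cell held 53 of the 208 *Sox4* UMIs, and whether it was in this bin was not examined. *Cd93* was at 61.8, 37.1, 26.8, 15.8 and 63.9 CPM over the 5 bins in WT and at 43.0, 71.6, 19.6, 32.6 and 37.9 CPM in KO. Its end bins could not be told apart by their Poisson intervals in either library. *Klf2* and *Ccr7* were higher at the upper end in WT and lower in KO. *Klf2* went from 1411 to 1786 CPM between the end bins in WT and from 1515 to 1159 CPM in KO, and *Ccr7* from 848 to 1312 CPM and from 785 to 704 CPM. Median UMIs per cell in the 5 bins lay between 8690 and 12024 in WT and between 10688 and 12660 in KO.

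**Figure D2:**
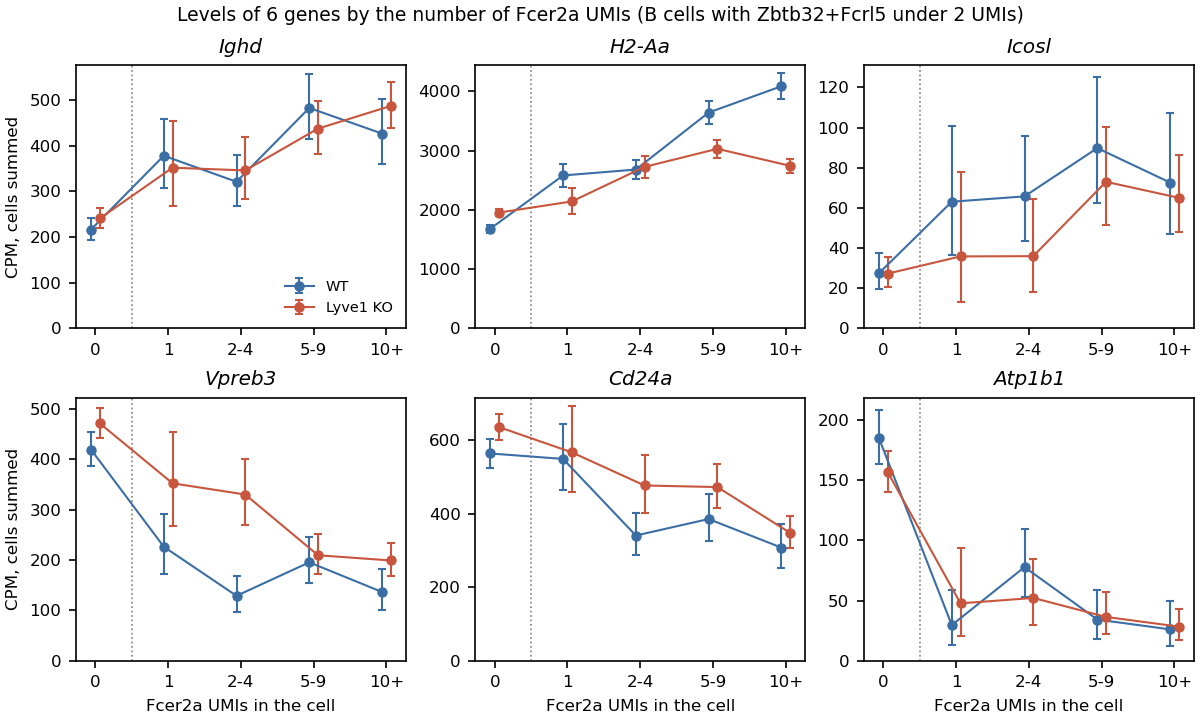
Levels (CPM, y axes from 0) of 6 genes in B cells with fewer than 2 *Zbtb32* and *Fcrl5* UMIs, in bins of 0, 1, 2 to 4, 5 to 9 and 10 or more *Fcer2a* UMIs per cell (x axis), WT in blue and *Lyve1* KO in red, with exact Poisson 95% intervals. The dotted line separates *Fcer2a*-zero from *Fcer2a*+ B cells; *Ighd* and *H2-Aa* were higher and *Vpreb3*, *Cd24a* and *Atp1b1* lower to its right in both libraries.

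Of the markers of other cells, those of T cells and neutrophils were near 0. The 12 T cell genes summed to 17.8 and 5.19 CPM, against 5293 and 5069 CPM in T cells, with *Cd3e*, *Cd4*, *Cd8a* and *Cd8b1* at 0 UMIs in both libraries. *Cd3e* was limited by the rule and also chose the T cells, so its values describe the choice. The 8 neutrophil genes summed to 5.7 and 12.7 CPM, led by *S100a8* and *S100a9*. The 8 genes of NK cells summed to 128 and 1.15 CPM. All 109 WT UMIs of *Gzma*, 41 of *Nkg7* and 7 of *Eomes* were in the same single cell. The 12 macrophage and monocyte genes summed to 194 and 213 CPM, of which *Apoe* was 140 and 145 CPM. *Apoe* had a UMI in 30.5% of WT and 30.8% of KO *Fcer2a*+ B cells, against 27.5% and 12.4% of T cells, and thinned to 6500 UMIs in 24.8% and 21.6% against 12.8% and 7.7%. *Apoe* had 21.8 UMIs per *Lyz2* UMI in WT *Fcer2a*+ B cells and 9.33 in KO, against 1.19 and 0.58 in macrophages of the same libraries. It was 11.3 and 1.15 in *Zbtb32*/*Fcrl5* B cells, 11.4 and 1.64 in *Fcer2a*-zero B cells and 7.36 and 2.90 in T cells. *C1qa* was at 6 UMIs in WT and 1 in KO. The 10 genes of cardiac stroma and muscle summed to 281 and 306 CPM, of which *Pecam1*, the adhesion molecule CD31, was 276 and 293 CPM, with *Col3a1* at 0 UMIs in both libraries. The 8 dendritic cell genes summed to 244 and 254 CPM, of which *Irf8* was 235 and 245 CPM, with *Xcr1* and *Cd209a* at 0 UMIs in both. The 8 erythroid and platelet genes summed to 27.8 and 5.77 CPM, led by *Hbb-bs*. Where the *Apoe* UMIs of these cells came from, and the part of these lists in the results, was not tested.

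*Lyve1* itself checked the labels: over barcodes that passed the limits on genes and mitochondrial UMIs it was at 245 CPM (15795 UMIs) in WT and 13.1 CPM (766 UMIs) in KO, and in macrophages at 380 and 15.3 CPM. In *Fcer2a*+ B cells, which should lack it, the order was the other way, with 1 UMI in WT (1 of 118 cells, 0.85%) and 19 UMIs in KO (17 of 133 cells, 12.8%, interval 7.63–19.7), at most 2 in a cell. Thinned to 6500 UMIs the shares were 0.99% and 6.4%. In KO, a *Lyve1* UMI was in 13.3% of *Fcer2a*-zero B cells and 9.0% of T cells, but *Zbtb32*/*Fcrl5* B cells, with a median of 29690 UMIs, had one in 3 of 148 (2.0%).

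*Fcer2a*+ B cells made up 3.49% of WT barcodes that passed the limits on genes and mitochondrial UMIs (118 of 3380, 2.90–4.17) and 4.8% of KO barcodes (133 of 2769, 4.04–5.67), and KO minus WT was 1.31 points (Newcombe interval 0.31 to 2.34). Of all deposited barcodes they were 2.07% and 2.52%, and KO minus WT was 0.45 points with an interval, -0.11 to 1.02, that holds 0. All B cells were more frequent in KO (10.1% of WT and 15.9% of KO barcodes, KO minus WT 5.79 points, 4.11 to 7.50). Among B cells the share of the selected *Fcer2a*+ B cells was 34.7% in WT (118 of 340, 29.7–40.0) and 30.3% in KO (133 of 439, 26.0–34.8), and KO minus WT was -4.4 points with an interval, -11.0 to 2.19, that holds 0. This share leaves out the *Zbtb32*/*Fcrl5* B cells that had an *Fcer2a* UMI, 21 of 97 in WT and 16 of 148 in KO. *Zbtb32*/*Fcrl5* B cells were 28.5% and 33.7% of B cells. Both libraries held cells with *Xist* and cells with Y-linked genes. Cells with *Xist* and no Y-linked UMI were 22.9% of WT and 34.6% of KO *Fcer2a*+ B cells, and cells with a Y-linked UMI and no *Xist* were 66.9% and 51.9%. Of barcodes with *Xist*, 2.93% (WT) and 5.07% (KO) were *Fcer2a*+ B cells, and KO minus WT was 2.13 points (0.33 to 4.0). Of barcodes with a Y-linked gene 4.21% and 5.04% were, and KO minus WT was 0.82 points (-0.62 to 2.35). Which of the 5 hearts a cell came from was not known here, so these intervals leave out the spread between hearts.

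The comparison with *Zbtb32*/*Fcrl5* B cells sets *Fcer2a*+ B cells beside the B-1-type cells of the same libraries. The groups were separated by *Zbtb32* and *Fcrl5*, and an *Fcer2a* UMI was required only of *Fcer2a*+ B cells. Of *Zbtb32*/*Fcrl5* B cells, 21 of 97 in WT and 16 of 148 in KO had an *Fcer2a* UMI. The genes of the rule were left out. Of 8419 genes with at least 100 UMIs over both groups and libraries, 204 (2.42%) were at least 2-fold higher in *Fcer2a*+ B cells in both libraries (a log2 ratio of at least 1, on CPM + 10) and 287 (3.41%) at least 2-fold lower. The median log2 ratio of all genes was 0.065 in WT and 0.041 in KO. *Zbtb32*/*Fcrl5* B cells had 28991 and 29690 UMIs per cell, and with every cell thinned to 6500 UMIs the counts were 141 and 230. With the UMIs of both groups added, a gene could pass the filter through the group where it was high. Of 4811 genes with at least 100 UMIs in each group, 166 (3.45%) were higher and 64 (1.33%) lower.

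Of the 12 gene lists plotted by their medians, the cell cycle list had the lowest ratios. Of 20 cell cycle genes, 5 had at least 100 UMIs in each group, and of these *Hmgb2*, *Mcm3*, *Mcm6* and *Tubb5* were at least 2-fold lower in *Fcer2a*+ B cells in both libraries. The median log2 ratios of the 5 were -1.72 in WT and -1.64 in KO. *Hmgb2*, a chromatin protein, was at 185 and 193 CPM against 915 and 1026 CPM, and *Mcm3*, a subunit of the replicative helicase, at 34.2 and 35.2 CPM against 165 and 139 CPM. The other 15 genes had under 100 UMIs in *Fcer2a*+ B cells, and their values are a description. *Mki67*, a marker of dividing cells, was at 15.7 and 11.5 CPM, against 351 and 405 CPM in *Zbtb32*/*Fcrl5* B cells. Thinned to 6500 UMIs, 6.9% of WT and 5.6% of KO *Fcer2a*+ B cells had a *Mki67* UMI, against 24.7% and 29.7%. *Top2a*, a DNA topoisomerase of dividing cells, was at 25.6 and 13.8 CPM against 419 and 527 CPM. *Ccna2*, which encodes cyclin A, had 0 UMIs in both libraries of *Fcer2a*+ B cells. *Birc5*, *Kif11*, *Ube2c*, *Cdca3*, *Cdca8*, *Pclaf* and the histone genes *Hist1h1b*, *Hist1h2ab* and *Hist1h2ae* were also among the 15 genes with the lowest ratios, 14 of which had under 100 UMIs in *Fcer2a*+ B cells and passed the filter through *Zbtb32*/*Fcrl5* B cells. The other lowest genes bind calcium or membranes: *S100a6* (78.4 and 79.6 CPM against 2665 and 3056 CPM), *S100a4* (1.42 and 9.81 CPM against 402 and 500 CPM) and *Anxa2* (14.2 and 6.35 CPM against 183 and 144 CPM).

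Of the B-1 list 2 genes had at least 100 UMIs in each group, and of these *Ahnak*, a large scaffold protein, was at least 2-fold lower in both libraries (log2 ratio -1.64 in WT and -2.03 in KO). Another 8 passed the filter through *Zbtb32*/*Fcrl5* B cells, among them *Plscr1*, a phospholipid scramblase (-2.22 and -2.67, with 45 and 30 UMIs in *Fcer2a*+ B cells). *Cd5*, the classical B-1a marker, was at 9.26 and 9.23 CPM against 26.4 and 26.8 CPM. Outside that list, *Itgb1*, an integrin chain, was at 100.4 and 64.0 CPM against 359 and 373 CPM, *Cd9*, a tetraspanin, at 31.3 and 16.2 CPM against 152 and 121 CPM, and *Ly6a*, which encodes Sca-1, at 74.8 and 95.2 CPM against 497 and 438 CPM. Of 13 listed inhibitors of the B cell receptor, 10 had at least 100 UMIs in each group. *Fcgr2b*, the inhibitory IgG receptor, was lower (log2 ratio -1.03 and -1.36), and *Cd72* was higher (1.95 and 1.12). *Ptpn22*, a phosphatase, had ratios of -1.58 and -2.19 and, like *Cd9* and *Cd80*, passed the filter through *Zbtb32*/*Fcrl5* B cells. *Cd80*, a costimulatory ligand of T cells, was at 5.7 and 4.04 CPM against 64.9 and 34.6 CPM, while its relative *Cd86* was at 162 and 164 CPM against 170 and 159 CPM.

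On the other side, 7 of 23 transcription factors of the B lineage were at least 2-fold higher in *Fcer2a*+ B cells in both libraries and none was lower. *Bach2*, which holds B cells back from plasma cell fate, was at 779 and 914 CPM against 154 and 161 CPM (log2 ratio 2.26 and 2.44). *Bcl6*, the regulator of germinal centre fate, was at 79.1 and 83.7 CPM against 10.6 and 15 CPM. *Id3*, an inhibitor of E proteins, had log2 ratios of 2.17 and 2.44, *Irf8* 1.87 and 1.84, *Foxo1* 1.68 and 1.35, *Klf2* 1.51 and 1.25, and *Ebf1* 1.18 and 1.26. Of 9 mature follicular genes with at least 100 UMIs in each group, 3 were at least 2-fold higher and none lower. Besides *Ighd* and *Klf2* this was *Cd55*, a brake on complement (598 and 712 CPM against 204 and 207 CPM). *Icosl*, the ligand of the T cell costimulator ICOS, was at 73.4 and 59.4 CPM against 6.1 and 4.72 CPM, and passed the filter through *Fcer2a*+ B cells. Of 12 genes of MHC class II presentation and costimulation with at least 100 UMIs in each group, *H2-Ob*, *H2-Oa* and *Ciita* were higher and none was lower. *H2-Ob* and *H2-Oa* form H2-O, which restrains peptide loading, and *Ciita* is the master regulator of the class II genes. *H2-Aa*, *H2-Ab1* and *H2-Eb1*, which form the presenting molecules, had log2 ratios between 0.81 and 0.91 in both libraries.

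By rank, the highest gene was *Cpm*, a membrane carboxypeptidase, at 128 and 156 CPM against 7.07 and 6.69 CPM. *Zfp608*, *Sox4*, *Neurl3*, *Lrrk2*, *Snx29*, *Bach2*, *Icosl*, *Id3* and *Btg1* followed. *Lrrk2*, a large kinase, was at 201 and 169 CPM against 23.1 and 20.7 CPM, and *Btg1*, an inhibitor of proliferation, at 1363 and 1330 CPM against 262 and 290 CPM. *Satb1*, a chromatin organizer, *Maml2*, a Notch coactivator, and *Rhob*, a small GTPase, were also among the 15 highest, with log2 ratios between 1.90 and 2.39. Of the 15, *Cpm*, *Sox4*, *Neurl3* and *Icosl* had under 100 UMIs in *Zbtb32*/*Fcrl5* B cells and passed the filter through *Fcer2a*+ B cells. Of 18 homing and egress genes tested, *Klf2*, *Cxcr4* (1.21 and 1.09) and the cannabinoid receptor *Cnr2* (1.56 and 1.72) were higher and *Itgb1* was lower. Of 6 cytokine genes with at least 100 UMIs in each group, *Il16* was higher, at 110 and 118 CPM against 37.9 and 45.1 CPM. *Il12a*, which encodes the p35 subunit of interleukin-12 and interleukin-35, had 53 UMIs in WT and 52 in KO (log2 ratio 1.82 and 1.65), and passed the filter through *Fcer2a*+ B cells. *Il12a* had a UMI in 27.1% of WT and 21.8% of KO *Fcer2a*+ B cells, in 25.6% and 29.7% of *Fcer2a*-zero B cells and in 0 of 244 and 0 of 410 T cells, which allows shares of up to 1.2% and 0.73% (3 cells of each total). Of the B cell receptor signaling list, 0 of 19 genes passed the size limit in either direction, and of 11 toll-like receptor genes 0 did. Over all 8419 genes, 2.42% were higher and 3.41% lower, so a count of 0 in lists this short is near the share over all genes.

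**Figure D3:**
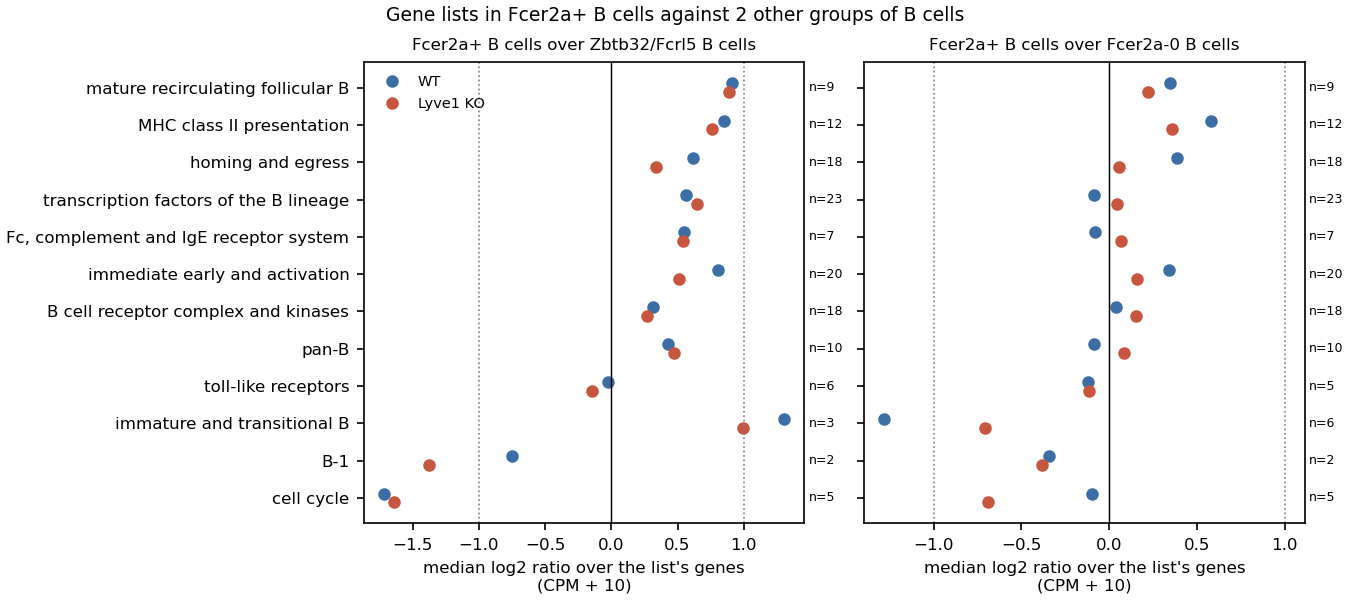
Median log2 ratio (on CPM + 10) of 12 gene lists in *Fcer2a*+ B cells over *Zbtb32*/*Fcrl5* B cells (left) and over *Fcer2a*-zero B cells (right), WT in blue and *Lyve1* KO in red, with n the genes with at least 100 UMIs in each of the groups compared and dotted lines at the 2-fold limit. Cell cycle genes stood lowest on the left, at -1.72 and -1.64. The immature and transitional list had medians of 1.31 and 0.99 over 3 genes on the left and -1.28 and -0.71 over 6 on the right. In both libraries only *Vpreb3* passed the limit on the left and only *Atp1b1* on the right.

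*Fcer2a*-zero B cells were far closer. Of 7234 genes, with the genes of the rule left out, 13 (0.18%) were at least 2-fold higher in *Fcer2a*+ B cells in both libraries and 28 (0.387%) at least 2-fold lower. Of 4709 genes with at least 100 UMIs in each group, 4 (0.0849%) were higher, *Igkv10-96*, *Igkv12-46*, *Rapgef4* and *Sfn*, and 3 (0.0637%) were lower, *S100a6*, *Atp1b1* and *Igkv6-23*. The median log2 ratio of all genes was -0.043 in WT and -0.018 in KO. An *Fcer2a*-zero B cell may carry the transcript below detection: it had a median of 9812 UMIs in WT and 10749 in KO. Of the 13 higher genes, 7 were immunoglobulin V segments and the other 6 were *Ttc28*, *Rflnb*, *Slc2a3*, *Rapgef4*, *A630023P12Rik* and *Sfn*. *Stat4*, *Neurl3*, *H2-Eb2* and *Gpr174* came next, past the limit in 1 library each. Of these 10 genes, *Ttc28*, *Rflnb*, *Slc2a3*, *A630023P12Rik*, *Neurl3* and *H2-Eb2* had under 100 UMIs in *Fcer2a*-zero B cells. For *Slc2a3*, 53 of the 105 WT UMIs were in 1 cell, and without the cell with most of its UMIs the WT log2 ratio was 0.80 in place of 1.62, under the limit. For *Sfn*, with 38 of 302 WT UMIs in 1 cell, it was 0.96 in place of 1.13, also under the limit. *Rapgef4*, an exchange factor driven by cyclic AMP, was at 97.6 and 171 CPM against 38.0 and 42.5 CPM. *Stat4*, a signal transducer of interleukin-12, was at 217 and 201 CPM against 105 and 71.2 CPM, and *Gpr174*, a lysophosphatidylserine receptor, at 84.1 and 100.4 CPM against 39.4 and 27.2 CPM. *Slc2a3*, a glucose transporter, was at 74.8 and 43.8 CPM against 17.6 and 13.9 CPM.

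The lowest genes against *Fcer2a*-zero B cells were *S100a6* (78.4 and 79.6 CPM against 429 and 420 CPM), *Atp1b1* (44.2 and 36.9 CPM against 185 and 157 CPM) and the histone gene *Hist1h1b*, with *Mki67* next. *Gm42047*, *S100a4*, *Mpeg1*, *Hist1h2ab*, *Hist1h2ae* and *Grn* completed the 10, of which all but *S100a6* and *Atp1b1* had under 100 UMIs in *Fcer2a*+ B cells and passed the filter with the UMIs of *Fcer2a*-zero B cells added. Of 7 immature and transitional genes tested, only *Atp1b1* passed the limit in both libraries. Over the 6 with at least 100 UMIs in each group the median log2 ratio was -1.28 in WT and -0.71 in KO. *Sox4* had ratios of -1.29 and -0.86, *Vpreb3* -1.27 and -0.94, *Tifa* -1.61 and -0.52, and *Cd24a* -0.54 and -0.55. Of 11 mature follicular genes 0 passed, and the 9 with at least 100 UMIs in each group had medians of 0.35 and 0.22. *Ighd*, 1 of the 9, was at 0.86 and 0.83, and *Icosl*, with under 100 UMIs in *Fcer2a*-zero B cells, at 1.16 and 0.90. Of 13 genes of MHC class II presentation 0 passed, and 12 had medians of 0.58 and 0.36. Over all 7234 genes, 0.18% were higher and 0.387% lower, so a count of 0 in these lists is near the share over all genes. The 9 plasma cell genes summed to 852 and 853 CPM in *Fcer2a*+ B cells and to 2408 and 944 CPM in *Fcer2a*-zero B cells, where *Jchain*, the joining chain of secreted IgM, was at 1105 CPM in WT and 1.91 in KO, against 0.71 and 1.73 CPM in *Fcer2a*+ B cells. The number of WT *Fcer2a*-zero B cells that held the *Jchain* UMIs is not given here, so the sum does not describe the typical cell of that group. The 20 cell cycle genes summed to 855 and 816 CPM in *Fcer2a*+ and to 1167 and 1889 CPM in *Fcer2a*-zero B cells. Their part in the gene counts was not tested.

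The heavy chains of these cells were mostly IgM by their constant genes and spread over many V segments. *Ighm*, the IgM heavy chain, had a UMI in 117 of 118 WT and 133 of 133 KO cells, and the switched genes *Ighg1*, *Ighg2b*, *Ighg2c* and *Ighe* had 0 UMIs in both libraries. Of the other switched genes, *Ighg3* had 1 UMI in WT and 0 in KO, and *Igha* had 3 and 12. A dominant heavy chain V segment (at least 3 UMIs and more than any other) could be given to 115 WT and 130 KO cells and a dominant light chain V segment to 116 and 131. The heavy chain segments were 55 different ones in WT and 61 in KO. Of these, 45 were in both libraries, which is 81.8% of the WT and 73.8% of the KO segments. The most frequent was *Ighv3-6* in WT (8 cells, 7.0%) and *Ighv1-26* in KO (9 cells, 6.9%). By family, *Ighv1* led with 43.5% of WT cells (50 of 115, 34.3–53.0) and 46.2% of KO cells (60 of 130, 37.4–55.1), against 33 of 97 WT and 53 of 148 KO *Zbtb32*/*Fcrl5* B cells and 41 of 119 and 72 of 149 *Fcer2a*-zero B cells (34.5% and 48.3%), and *Ighv5* came second with 18.3% and 13.1%. Pairs of a heavy and a light segment were mostly seen once: 114 WT cells held 107 pairs, and 129 KO cells held 123, with 14 and 12 cells in a pair that another cell of the library shared.

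The light chain class depended on which genes were read. By UMIs of *Iglc1*, *Iglc2* and *Iglc3* against *Igkc*, 95.1% of WT cells (97 of 102 with at least 10 UMIs) and 94.2% of KO cells (113 of 120) were lambda, with a KO minus WT difference of -0.93 points (-7.30 to 5.83). By V segments, 11.4% of WT cells (13 of 114, 6.21–18.7) and 7.75% of KO cells (10 of 129, 3.78–13.8) were lambda, with a KO minus WT difference of -3.7 points (-11.6 to 3.86). The 101 WT cells that were kappa by V segments still averaged 9.65 *Iglc2* UMIs and 9 *Iglc3* UMIs beside 5.51 *Igkc* UMIs, and an *Iglc3* UMI was in 96.0% of them. In cells that were kappa by V segments, lambda segments held only 1.4% (WT) and 4.6% (KO) of the light chain V UMIs. The constant genes thus did not separate the light chain classes here, and the share by these genes should not be read as a share of lambda cells. The lambda constant genes are closely similar copies, so the split of UMIs among them is uncertain, but the measure used their sum. Why the 2 measures differ was not tested.

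Between the libraries, few genes of *Fcer2a*+ B cells outside the antigen receptor differed by 2-fold. Of 4852 genes with at least 100 UMIs over both libraries, 23 (0.474%) were at least 2-fold higher in KO and 21 (0.433%) at least 2-fold lower. The median log2 ratio was -0.0094, and 94.3% of genes lay within 0.5 of 0. Of these 44 genes, 34 were immunoglobulin V segments, 22 higher and 12 lower. These V segments had a UMI in a median of 5 cells over both libraries, and in up to 20 WT and 30 KO cells for *Igkv2-109*. In 9 of the 34 a single cell held over 50% of the UMIs. Among the other 4779 genes, 1 was higher and 9 lower. This split depended on the pseudocount, the value added to CPM before the log2. With a pseudocount of 1 CPM, the counts over all genes were 29 higher and 27 lower. Of the genes named below, *Ifi214* (log2 ratio 1.235), *Atp5k* (1.059), *Nbeal1* (1.169), *Sema5a* (1.135) and *Smad7* (1.040) were then also past the limit. *Tubb2a* (-1.150) then passed it among the lower genes.

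**Figure D4:**
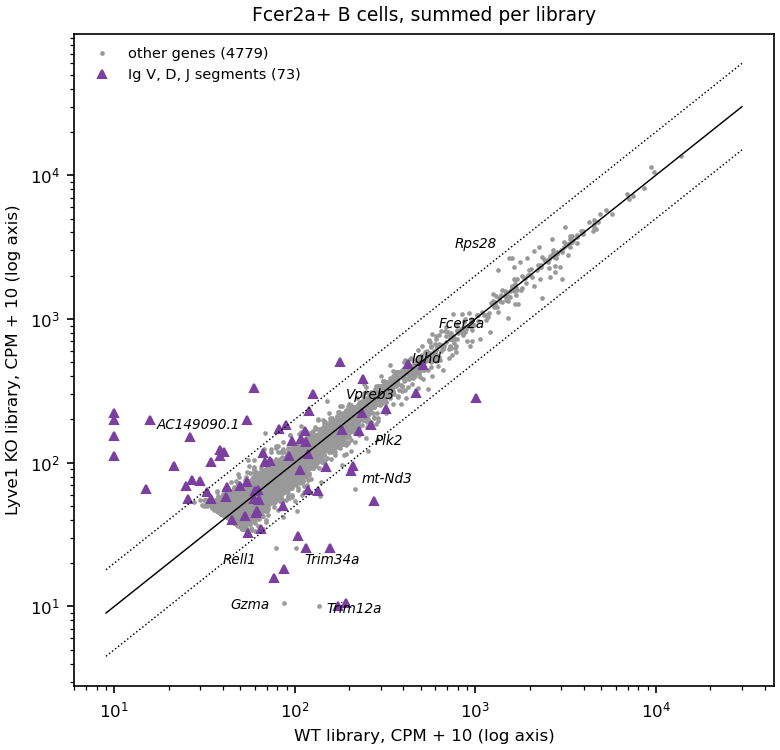
Level of each of 4852 genes in *Fcer2a*+ B cells of the WT library (x axis) and the *Lyve1* KO library (y axis), as CPM + 10 on log axes, with purple triangles for immunoglobulin V, D and J segments; the solid line marks equal levels and the dotted lines 2-fold differences. Outside the V segments, 95.3% of genes lay within 0.5 log2 units of the line, with *Trim12a* and *Gzma* farthest below it.

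*Trim12a*, an antiviral TRIM protein gene on chromosome 7 (104299894 to 104315466, minus strand, GENCODE M21), had 176 UMIs in WT, in 85 of 118 cells (72.0%), and 0 UMIs in the 133 KO cells. Against a floor of 3 UMIs it was at least 72.4-fold lower in KO. Its neighbours *Trim5* (85 and 0 UMIs, at least 34.98-fold lower) and *Trim30d* (60 and 0 UMIs, at least 24.7-fold lower) and, on chromosome 17, *Dynlt1b* (67 and 0 UMIs, at least 27.6-fold lower) had the same pattern but fell under the filter of 100 UMIs. *Trim34a*, beside them, was at 91.9 and 15.6 CPM. These TRIM genes lie 6.34 to 6.59 Mb from *Lyve1* on chromosome 7. The difference was in other cells too: *Trim12a* was in 73 of 125 WT and 0 of 158 KO *Fcer2a*-zero B cells, in 72 of 97 and 1 of 148 *Zbtb32*/*Fcrl5* B cells and in 123 of 244 and 0 of 410 T cells. Of 46 genes tested within 10 Mb of *Lyve1*, 2 were lower in KO, *Trim12a* and *Trim34a*, and none was higher, with a median log2 ratio of -0.067. *mt-Nd3*, a mitochondrial complex I gene, was at 207 and 55.4 CPM, and at 213 and 51.6 CPM in *Zbtb32*/*Fcrl5* B cells. *Rps28*, a ribosomal protein gene, was at 1524 and 2625 CPM, and at 1564 and 2541 CPM in *Zbtb32*/*Fcrl5* B cells. *AC149090.1* was the only gene outside the V segments that was at least 2-fold higher in KO on CPM + 10. It was at 58.4 and 150 CPM, and at 43.6 and 111 CPM in *Fcer2a*-zero B cells.

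The other genes past the limit were *Rell1* (69.1 and 15.6 CPM), *Atf3*, a stress-induced transcription factor (127 and 48.5 CPM), *Lgals1*, a galectin (93.3 and 36.3 CPM), *Plk2*, a stress-responsive kinase (245 and 111 CPM), *Dusp5*, a phosphatase of ERK (75.5 and 31.7 CPM), and *Gzma*, whose WT UMIs were in 1 cell. *Dusp5* had a log2 ratio of -1.03, which was -0.89 with at least 2 *Fcer2a* UMIs and -0.99 as a mean of per-cell CPM. *Atf3* had a UMI in 29 WT and 17 KO cells and *Plk2* in 60 and 41. *Lgals1* was at -0.32 on the log2 scale, in place of -1.16, once 4 WT and 2 KO possible doublets were left out, and 66 of its 131 WT UMIs were in 1 cell, without which and the top KO cell the ratio was -0.54. In cells with *Xist*, *Plk2* had a KO over WT log2 ratio of 0.17, *Dusp5* of 0.078 and *Lgals1* of 0.67, and in cells with a Y-linked gene of -1.68, -1.46 and -0.35. *Atf3* (-1.88 and -0.85) and *Rell1* (-2.56 and -1.36) were lower in KO in both parts. The differences between the parts were not tested. Below the limit with the main pseudocount, *Tubb2a* was lower in KO (log2 ratio -0.93). Also below it, *Ifi214*, *Atp5k*, *Nbeal1*, *Sema5a*, *Hist1h4d*, *Ifi27l2a*, *Denr* and *Smad7* were higher, with log2 ratios between 0.81 and 0.94. *Ifi27l2a*, an interferon-induced gene, was at 142 and 258 CPM.

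Of the label genes, *Fcer2a* had a KO over WT log2 ratio of 0.45, *Vpreb3* of 0.49, *Ighd* of 0.11 and *Cd79a* of 0.0048. *Vpreb3* was found in 18.8 points more KO than WT cells (6.83 to 30.1), and at 6500 UMIs per cell in 15.7 points more (2.66 to 28.0). In cells with *Xist* its ratio was 1.33 (110 CPM in WT, 292 CPM in KO) and in cells with a Y-linked gene 0.046 (181 and 187 CPM), and the difference between these parts of the pools was not tested. No list had a member past the limit other than the NK list, with *Gzma*, and the list of genes near *Lyve1*, with *Trim12a*. The mature follicular list had a median log2 ratio of -0.056 (12 genes), MHC class II presentation -0.040 (13 genes), homing and egress -0.13 (18 genes), transcription factors 0.058 (23 genes), B cell receptor signaling 0.046 (21 genes), the interferon response 0.19 (7 genes) and the survival and BCL2 family list -0.075 (13 genes). *Itgb1* (log2 ratio -0.58), *Ccr7* (-0.57) and *Cxcr4* (-0.56), the latter pair receptors of lymph node and bone marrow chemokines, were the lowest of the homing genes.

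The genes of the immediate early and activation list lay mostly on 1 side. The list was chosen for the response to activation and to tissue dissociation, and the part of each in the values was not tested. Of 20 genes tested, 17 were lower in KO, none by 2-fold, with a median log2 ratio of -0.30 against -0.0094 for all genes. Their sum was 12445 and 9825 CPM. *Jun* was at 1051 CPM in WT (70.3% of cells) and 712 CPM in KO (60.9%), *Jund* at 1516 and 1001 CPM, *Nr4a1*, which reports receptor signaling, at 946 and 695 CPM, and *Egr1* at 195 and 134 CPM. In the same libraries the sum was 7276 and 7198 CPM in *Zbtb32*/*Fcrl5* B cells, 9933 and 9187 CPM in *Fcer2a*-zero B cells and 5610 and 6294 CPM in T cells. The sign differed between the sex-linked parts of the pools, a difference that was not tested. In cells with a Y-linked gene (79 WT, 69 KO), 19 of 20 genes were lower in KO and the median log2 ratio was -0.47. In cells with *Xist* (27 WT, 46 KO), 17 of 20 were higher in KO and the median was 0.47. *Jun* had a ratio of -0.94 in the first and 0.64 in the second, and *Egr1* of -1.54 and 0.34. The medians over all genes were -0.024 and 0.0036 in the 2 parts.

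**Figure D5:**
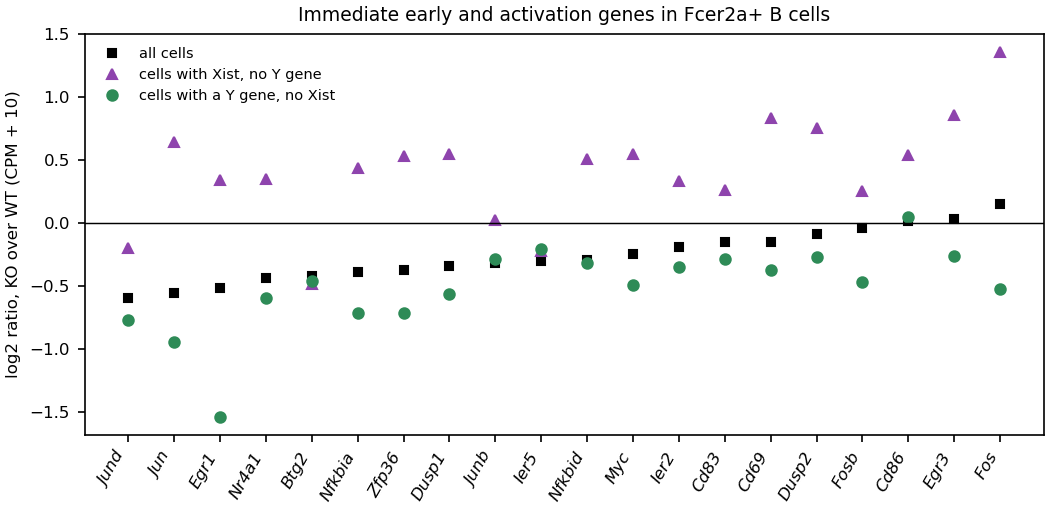
KO over WT log2 ratio (CPM + 10, y axis) of 20 immediate early and activation genes in all *Fcer2a*+ B cells (black squares), cells with *Xist* and no Y-linked UMI (purple triangles) and cells with a Y-linked UMI and no *Xist* (green circles). Most triangles lie above 0 and 19 of 20 circles below it.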

How the data were processed

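Per the file headers and the submitters' notes, the authors made the deposited counts with Cell Ranger 8.0.1 on mm10 (GRCm38) from 10x 5′ libraries. The values are whole-number UMI counts per gene and barcode, with no normalization. The members and lists were chosen with earlier results of these data known. Cells were selected by the limits given above. T cells and macrophages were barcodes within the same limits on genes and mitochondrial UMIs with at least 2 UMIs of *Cd3e* or of *Csf1r*, under 2 of the other and under 2 of *Cd79a* and *Cd79b* together. Counts were summed per library and group, scaled to CPM and compared as log2(CPM + 10), which understates the change of low genes; genes needed at least 100 UMIs over the groups compared, and a log2 ratio of 1 in size was the limit. With 1 library per genotype no test was made. Shares have exact Clopper-Pearson 95% intervals, differences of shares Newcombe intervals and sums exact Poisson intervals; for a count of 0 the limit given is 3 counts of the total. For shares, cells were also thinned to 6500 UMIs, the 10th percentile of the selected cells. No doublet caller was run; an alternative left out possible doublets (cells in the top 5% of B cell UMIs of their library, or with UMIs of at least 3 T cell or macrophage list genes other than *Lyz2* and *Apoe*). The study assigned cells to hearts and removed doublets by genotype, which was not repeated here. Named genes were the label genes, list members and the 10 or 15 most extreme per comparison. Gene positions came from GENCODE M21 and promoter windows from RefSeq (GRCm38.p6). Light chain calls by V segments, thinning of gene counts and the 100-UMI filter in each group were added after the data were seen. So was leaving out the cell with most UMIs of a gene. The other alternatives were other limits on cells, another pseudocount, another UMI filter and a total without immunoglobulin, mitochondrial, ribosomal and hemoglobin genes. They also held a mean of per-cell CPM, a limit of at least 50 light chain UMIs and shares with no thinning. Analyses used Python 3.11.15, numpy 2.4.6, scipy 1.17.1 and pandas 2.3.3, and were tested on simulated data.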

Additional observations from a re-analysis of the deposited data

Results flagged for a closer look

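A *Lyve1* UMI was found in 12.8% of KO *Fcer2a*+ B cells (17 of 133) and in 0.85% of WT cells (1 of 118). The gene was not part of the comparisons of these cells, and the signal in the KO library was above that in the WT library. *Lyve1* was at 11.0 CPM in KO *Fcer2a*+ B cells, 12.4 CPM in KO *Fcer2a*-zero B cells, 7.54 CPM in KO T cells, 1.18 CPM in KO *Zbtb32*/*Fcrl5* B cells and 15.3 CPM in KO macrophages. Its source was not tested.

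The immediate early and activation list had opposite directions in the sexes. The median log2 ratio of KO over WT was 0.47 in cells with *Xist* and -0.47 in cells with a Y-linked gene, over 20 genes. The difference was not tested, since each part came from 1 library per genotype, and the number of hearts of each sex in a pool was not known here.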

How the results depend on the processing

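No paired analysis was possible because the result comes from no test: each genotype had 1 library, and for the same reason no replicate could be left out. Of 91 recomputed shares and gene counts, 83 stayed within the interval of the share or within 1.5 times the count. Not among the 91 were the counts with at least 100 UMIs in each group. Those given below lay outside 1.5 times the main count. The sign of the KO minus WT difference in the *Cd93* share turned in 5 of 7 alternatives (-5.98 to 3.61 points) and in the lambda share in 1 of 8 (2.6 points with at least 50 light chain UMIs). With a pseudocount of 1 CPM, the genes higher and lower in *Fcer2a*+ than in *Zbtb32*/*Fcrl5* B cells were 348 and 449, and those against *Fcer2a*-zero B cells 30 and 62. With at least 2 *Fcer2a* UMIs, 43 genes were lower than in *Fcer2a*-zero B cells. With a filter of 20 UMIs in place of 100, 53 genes were higher and 58 lower in KO. With every cell thinned to 6500 UMIs, an alternative added after the data were seen together with the light chain call by V segments, 23 genes were higher than in *Fcer2a*-zero B cells. With at least 100 UMIs in each group, also added later, 64 genes were lower than in *Zbtb32*/*Fcrl5* B cells, and 4 were higher and 3 lower than in *Fcer2a*-zero B cells. More genes come under test with the lower filter and fewer with the filter in each group; the other causes were not tested. Of 260 recomputed KO over WT ratios of named genes, 245 kept their side of the limit and 1 reversed: *Gzma* was at 0.083 without possible doublets. The 260 include the ratios under the filter of 20 UMIs, which cannot change a ratio and so is no check. Leaving out the cell with most UMIs of a gene, also added after the data were seen, took *Slc2a3* and *Sfn* (WT, against *Fcer2a*-zero B cells) and *Lgals1* and *Gzma* (KO over WT) under the limit. Depth limits single genes, since 3 UMIs are 2.14 and 1.73 CPM, and 251 cells limit shares to several points.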

Other observations

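The most abundant protein-coding genes of *Fcer2a*+ B cells outside ribosomal, mitochondrial and immunoglobulin genes were *Cd74*, the invariant chain of MHC class II (13852 and 13582 CPM), *Cmss1* (9334 and 11337 CPM), *Tmsb4x*, a regulator of actin (7504 and 7125 CPM), and the elongation factor *Eef1a1* (7049 and 6866 CPM). *Fau*, *Actb*, *Tpt1*, *Tmsb10* and *H2-Aa* were also among the 10 most abundant. *Cmss1* was at 7626 and 11164 CPM *Zbtb32*/*Fcrl5* B cells.

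Of the listed B cell cytokines, *Ltb*, a subunit of lymphotoxin, was the most abundant, at 632 and 650 CPM, and was in 97.5% and 97.7% of cells. *Tgfb1* was at 341 and 326 CPM and *Tnf* at 81.2 and 98.6 CPM, with a *Tnf* UMI in 33.1% and 33.8% of cells. The growth factor *Vegfa* was at 6.41 and 6.35 CPM, against 17.99 and 21.7 CPM in *Zbtb32*/*Fcrl5* B cells. *Il6* and *Csf2* had 0 UMIs in both libraries. Of the receptors of survival factors, *Tnfrsf13c*, the BAFF receptor, was at 279 and 272 CPM and *Tnfrsf13b*, which encodes TACI, at 150 and 148 CPM, while *Tnfrsf17*, the receptor of plasma cells, had 0 UMIs.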
